A study of Homo sapiens with 38 samples.

Results

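The N2B27 day 4 point was cultured and sequenced in both experiments of the series, and the 4 libraries concerned are described here: 2 from the second experiment (Ex2) against 2 from the first (Ex1), chosen by their titles out of 38 libraries in 19 groups. All of them came from naive Shef6 cells, an established human embryonic stem cell line labelled as serum-adapted, and all were plated on Geltrex, a basement membrane extract. Day 4 cells were held in N2B27, a serum-free basal medium, with no inhibitor, cytokine or growth factor added apart from a ROCK inhibitor during the first day. Naive cells (day 0) were grown on Geltrex in PXGL (PXGLY in the labels), which is N2B27 with a MEK inhibitor, the tankyrase inhibitor XAV939, a protein kinase C inhibitor and LIF, at low oxygen. Ex1 also held N2B27 at days 2, 3, 6 and 8 and the primed media E8 and mTeSR at day 4, and Ex2 held naive cells on Geltrex and day 4 cells in N2B27 to which XAV was added, alone or with Activin A and FGF2 (FAX). The question this repeat allows is how far the same cells, medium and day gave the same transcriptome on another occasion. The labels do not say whether the 2 libraries of a group came from separate cultures, and the study's text calls such replicates technical in some places and biological in another. The p-values rest on the spread between the 2 libraries of a group, pooled over all 19 groups, and not on a spread between occasions. That spread was uneven. Chi-square per degree of freedom between the libraries of a group was 1.88 and 1.54 at N2B27 day 4 of Ex1 and Ex2. It was 8.02 and 8.36 at N2B27 days 2 and 3. Everything that differed between the occasions, from culture to sequencing, cannot be told apart.

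Capacitation is the exit of human naive cells, which resemble the early epiblast, towards formative and then primed pluripotency, in which cells become able to respond to inductive signals. Removal of the MEK inhibitor releases FGF/ERK signalling, naive factors such as KLF17 and TFCP2L1 are lost, and ZIC2, SALL2 and later CDH2 are acquired, while POU5F1, SOX2 and NANOG stay on. Several stress and metabolic circuits overlie this programme. HIF factors, stabilised at low oxygen, drive enzymes of glycolysis and collagen hydroxylation. SREBP2 drives sterol synthesis when membrane sterol is short, MTF1 drives metallothioneins when free zinc rises, HSF1 drives heat shock genes when proteins misfold, and SRF with its actin-sensing cofactors drives contractile genes when actin is polymerised.

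The Ex1 libraries held 5612354 and 5353780 counts with 24759 and 24453 genes detected, and the Ex2 libraries 3856149 and 4248636 counts with 22838 and 23295 genes. Mitochondrial transcripts took 2.55% to 3.03% of counts and ribosomal protein transcripts 7.96% to 8.95%. Each of the 4 libraries was most like the other of its own group (Pearson's r over log2 CPM 0.9856 in Ex1 and 0.9817 in Ex2). The next most similar library of both Ex1 samples was N2B27 day 3 replicate 2 of Ex1 (0.9809 and 0.9795), whereas that of both Ex2 samples was an XAV day 4 library of Ex2 (0.9785 and 0.9788). Averaged over libraries, however, Ex1 day 4 was at 0.9736 to day 3 of Ex1, and at 0.9764 to XAV and 0.9758 to N2B27 day 4 of Ex2.

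At a 2-fold threshold few genes differed between the experiments. In bulk RNA, fewer cells of a type and less RNA per cell cannot be told apart, here and in what follows. In edgeR's quasi-likelihood test 168 of 16674 genes were called (Benjamini-Hochberg adjusted p under 0.05 and a log2 fold change beyond 1 either way), or 1.01% of those tested; 65 were higher in Ex2 (0.39%) and 103 lower (0.618%). By adjusted p alone, 297 genes were higher (1.78%) and 349 lower (2.09%). These shares depend on the pooled spread. A fit to the compared libraries alone put 8.66% of 13936 genes higher by adjusted p and 7.54% lower. The median log2 fold change over all genes was -0.009, with the middle 90% of genes between -0.95 and 0.75. All 168 called genes had no overlap between the libraries of the experiments, which was also true of 9173 (55%) of all genes tested, and 114 of the 168 stayed under 20 CPM (counts scaled by the TMM-normalised library size) on their higher side. The number called was unstable: it was 95 without Ex1 replicate 1, 52 without Ex1 replicate 2, 93 without Ex2 replicate 1 and 62 without Ex2 replicate 2, and 98 in DESeq2.

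**Figure D1:**
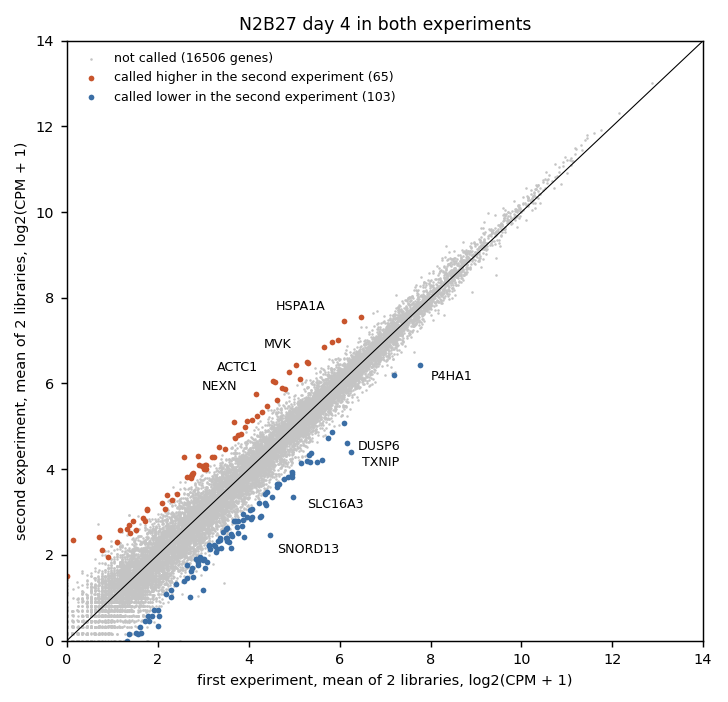
Mean level of each tested gene at N2B27 day 4 in the first (x axis) and second (y axis) experiment, both as log2(CPM + 1), with 65 genes called higher in the second experiment in orange, 103 called lower in blue and the line of equality in black. Most genes lie along the line, and the called genes spread over low and middle levels, with P4HA1 the furthest to the right on the lower side.

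Several of the lower genes act in oxygen and glucose handling. P4HA1, the catalytic subunit of the collagen prolyl 4-hydroxylase and a classical HIF target (chr10:73007217-73096974, GRCh38), was at 218 and 219 CPM in Ex1 and at 82.3 and 87.3 CPM in Ex2. It was 2.57-fold lower in Ex2 (log2 fold change -1.36, SE 0.0976, edgeR adjusted p = 7.6e-11). TXNIP, an arrestin-like protein that restrains glucose uptake and is induced by glucose (chr1:145992435-145996579), was at 72.6 and 78.7 CPM in Ex1 and 20.1 and 20.2 in Ex2, a 3.75-fold difference (log2 fold change -1.91, SE 0.167, edgeR adjusted p = 7.25e-09). In both genes the libraries of an experiment lay close together and far from those of the other.

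Other genes among the 12 largest falls act in the same processes. SLC16A3, which exports lactate, was at 27.7 and 33 CPM in Ex1 and 8.34 and 9.99 in Ex2 (log2 fold change -1.72, edgeR adjusted p = 0.000341). PDK1, the kinase that shuts pyruvate out of the mitochondrion, was at 47.1 and 48.7 against 16.9 and 18.1 CPM (-1.45, edgeR adjusted p = 4.8e-05). KDM4B, a histone H3 lysine demethylase known as a HIF target, was at 42.3 and 46.4 against 15.9 and 18.3 CPM (-1.37, edgeR adjusted p = 4.88e-06). Lack of overlap was a condition for naming these genes.

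Across the hypoxia-inducible list, 9 of 21 tested members passed the adjusted p in the lower direction and none in the higher (PDK1, P4HA1 and MXI1 beyond 2-fold), beside 2.09% of all genes. The list's median log2 fold change was -0.66 against -0.009 for all genes, and 4 members lay above 0. BNIP3, a mitophagy receptor, was at 459 and 502 CPM in Ex1 and 253 and 309 in Ex2 (-0.77, edgeR adjusted p = 0.000347), and FAM162A, a mitochondrial protein of the same response, was at 203 and 193 against 109 and 102 CPM (-0.91, edgeR adjusted p = 0.00117). Other targets did not pass: the angiogenic factor VEGFA was at 43.2 and 40.3 CPM in Ex1 and 38 and 38.5 in Ex2 (-0.12 ± 0.145 SE), and the glucose transporter SLC2A1 at 299 and 323 against 280 and 295 CPM (-0.11 ± 0.112 SE). Summed over the list, the libraries held 2857 and 2910 CPM in Ex1 and 2154 and 2280 CPM in Ex2. Leaving out any 1 library left 7 or 8 members past the adjusted p.

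Of 21 glycolysis genes, 4 passed the test and all 4 were lower (SLC16A3, LDHA, ENO2 and PGK1), beside 2.09% of all genes, with a list median of -0.22. LDHA, which makes lactate from pyruvate, was at 678 and 714 CPM in Ex1 and 359 and 381 in Ex2 (-0.91, edgeR adjusted p = 0.00159). PGK1, a step of lower glycolysis, was at 558 and 553 against 410 and 429 CPM (-0.41, edgeR adjusted p = 0.0127), and it no longer passed without any 1 of the 4 libraries. None of 33 nuclear-encoded respiratory chain genes passed (median 0.10, range -0.16 to 0.28), and of 13 mitochondrially encoded mRNAs MT-ND6 alone did, where 1.78% of all genes were higher, at 95.3 and 80.1 CPM in Ex1 and 181 and 135 in Ex2 (0.85, edgeR adjusted p = 0.0218).

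In several of these genes N2B27 of Ex1 was also above the other media at day 4. P4HA1 averaged 218 CPM in Ex1 N2B27, against 84.8 in Ex2 N2B27, 99.1 in XAV, 99.4 in FAX, 101 in E8 and 110 in mTeSR, and the last pair of media were cultured in Ex1. PDK1 averaged 47.9 CPM against 13 (mTeSR) to 25.1 (XAV), and SLC16A3 averaged 30.3 CPM against 7.12 (FAX) to 11 (mTeSR). For TXNIP the Ex1 mean of 75.6 CPM was followed by mTeSR (40.8), with the remaining groups at 14.7 to 20.1. KDM4B was at 44.3 CPM in Ex1 N2B27 and 37.9 in mTeSR, above 17.1 to 26 in the others.

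A pair of promoters of genes from this group are given with the core of the hypoxia response element in capitals, ACGTG read on either strand (here on the reverse), the stretch where HIF factors are known to bind, which also forms part of the CACGTG E-box. Sequences are RefSeq promoters of GRCh38.p14, the 250 bases before the annotated start, 5′ to 3′ on the gene's strand. 
P4HA1 promoter (chr10:73096867-73097116, minus strand): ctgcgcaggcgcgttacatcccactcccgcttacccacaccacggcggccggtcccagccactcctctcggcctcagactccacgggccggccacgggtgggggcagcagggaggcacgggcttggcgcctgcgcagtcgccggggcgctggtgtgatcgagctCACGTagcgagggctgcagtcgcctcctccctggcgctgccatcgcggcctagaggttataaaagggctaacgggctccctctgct
FAM162A promoter (chr3:122383932-122384181, plus strand): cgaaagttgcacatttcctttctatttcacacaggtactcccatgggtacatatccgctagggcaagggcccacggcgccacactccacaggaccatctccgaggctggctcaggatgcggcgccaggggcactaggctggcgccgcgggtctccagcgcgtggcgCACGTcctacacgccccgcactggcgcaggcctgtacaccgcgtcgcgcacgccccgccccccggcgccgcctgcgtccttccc
The core lay 86 bases before the RefSeq start in P4HA1 and 84 before it in FAM162A. It was present in 8 of 18 hypoxia-list promoters with an entry (44.4%, window from 250 bases before to 50 after the start) and in 5900 of 27305 promoters overall (21.6%), and a match of letters is no evidence of binding. Of the 3 list members called lower, P4HA1 alone was among these 8.

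**Figure D2:**
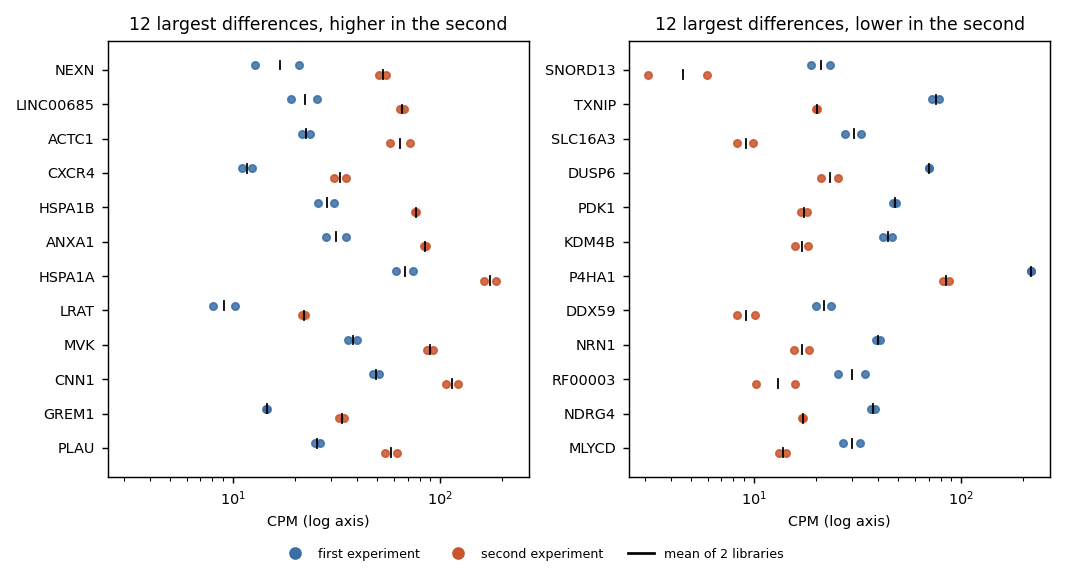
Level in each library, in CPM on a log axis, of the 12 genes with the highest rise (left) and the 12 with the largest fall (right) in the second experiment, among called genes with at least 20 CPM on the higher side; blue points are the 2 libraries of the first experiment, orange points those of the second and black ticks the group means. The libraries of a group sit close together in most genes, with NEXN in the first experiment (12.9 and 21 CPM) and SNORD13 in the second (3.09 and 5.99 CPM) the widest pairs.

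The FGF/ERK pathway, released on removal of the MEK inhibitor, showed one large difference and few others. DUSP6, the phosphatase that ERK induces against itself (chr12:89347235-89352501), was at 70.4 and 70.2 CPM in Ex1 and 25.5 and 21.2 in Ex2 (log2 fold change -1.59, SE 0.175, edgeR adjusted p = 1.37e-06), and Ex1 N2B27 was again the highest of the day 4 groups, the next being mTeSR at 42.9 CPM. EGR1, an immediate early target, was at 7.8 and 7.53 against 5.21 and 2.14 CPM (-1.08, edgeR adjusted p = 0.0397). Its call was lost in 5 of 11 alternative settings, among them DESeq2 and the fits without Ex1 replicate 1, Ex1 replicate 2 or Ex2 replicate 2. These 2 were the members of the 17 tested that passed, where 2.09% of all genes were lower by adjusted p and 0.618% called lower. SPRY4, an inhibitor of the pathway induced by it, was at 35.4 and 31 CPM in Ex1 and 32.3 and 35.4 in Ex2, and the list median was 0.03.

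Among the 12 largest rises were 3 contractile or actin-binding genes. NEXN, an actin filament-binding protein, was at 21 and 12.9 CPM in Ex1 and at 51.1 and 54.9 in Ex2, 3.12-fold higher (log2 fold change 1.64, SE 0.229, edgeR adjusted p = 4.8e-05). ACTC1, the cardiac α-actin (chr15:34790107-34795589), was at 23.7 and 21.7 against 57.3 and 71.6 CPM (1.51, edgeR adjusted p = 1.89e-06), and CNN1, the smooth muscle calponin, at 47.8 and 50.9 against 107 and 122 CPM (1.21, edgeR adjusted p = 0.000909). The rule that named them required groups without overlap.

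An actin cytoskeleton list was compiled after these values had been seen, so its counts are a description and no independent evidence. Of 32 tested members, 12 passed in the higher direction and none in the lower (1.78% of all genes were higher), 6 of them beyond 2-fold (0.39% of all genes; ACTA1, ACTC1, CNN1, TAGLN, NEXN and PALLD, the last lost without any 1 library); the median was 0.40 and 30 members lay above 0. TAGLN, which binds actin bundles, was at 64.3 and 58.8 CPM in Ex1 and 126 and 129 in Ex2 (1.05, edgeR adjusted p = 0.000178). The list summed to 8207 and 8195 CPM in Ex1 and 10190 and 10440 in Ex2. Without a library the number past the adjusted p was 6 (Ex1 replicate 1), 5 (Ex1 replicate 2), 6 (Ex2 replicate 1) and 4 (Ex2 replicate 2).

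Over the day 4 groups, Ex2 N2B27 had the highest mean for ACTC1, NEXN, CNN1 and TAGLN, though not for ACTA1. ACTC1 averaged 64.5 CPM there against 42.8 in mTeSR, 30.7 in E8 and 22.7 in Ex1 N2B27, and was lowest in XAV (9.01) and FAX (15.7), the media of its own experiment. NEXN averaged 53 CPM against 16.9 to 28.6 in the other day 4 groups, whereas ACTA1 was at 67.7 CPM in Ex2 N2B27 and 73.8 in E8. In the Ex1 course ACTC1 averaged 2.79 CPM at day 3 and 37.9 at day 6. Actin paralogues are near-identical in sequence, so counts of ACTA1, ACTC1 and ACTG2 may share reads. Of 13 fibroblast markers LUM, DCN, PRRX1 and FAP were too low to be tested and none of the other 9 passed the adjusted p (median -0.24); the part of such cells in these values was not tested.

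The promoters of 3 of these actin genes hold a CArG box, the site known for SRF, which is given in capitals.
ACTA1 promoter (chr1:229434095-229434344, minus strand): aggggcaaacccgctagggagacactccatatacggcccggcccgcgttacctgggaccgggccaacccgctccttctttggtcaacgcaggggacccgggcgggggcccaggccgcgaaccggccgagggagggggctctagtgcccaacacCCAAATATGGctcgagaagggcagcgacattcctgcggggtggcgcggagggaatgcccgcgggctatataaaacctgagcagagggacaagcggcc
ACTC1 promoter (chr15:34795550-34795799, minus strand): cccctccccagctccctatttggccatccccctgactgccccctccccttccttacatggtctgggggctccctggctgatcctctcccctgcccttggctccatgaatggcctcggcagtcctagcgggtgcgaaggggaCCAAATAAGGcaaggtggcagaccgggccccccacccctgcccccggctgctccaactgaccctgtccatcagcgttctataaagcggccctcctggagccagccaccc
ACTG2 promoter (chr2:73892758-73893007, plus strand): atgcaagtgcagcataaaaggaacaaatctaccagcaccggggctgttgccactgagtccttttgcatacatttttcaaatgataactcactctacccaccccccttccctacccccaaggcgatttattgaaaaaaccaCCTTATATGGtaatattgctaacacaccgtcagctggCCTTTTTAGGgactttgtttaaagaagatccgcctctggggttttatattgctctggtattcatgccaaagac
The box began 97 bases before the start in ACTA1, 109 in ACTC1, and 110 and 73 in ACTG2. Over both strands it was found in 9 of 29 promoters of the list (31%) and in 351 of 27305 of all genes (1.29%). NEXN and CNN1 had no match in the window. Of the 6 members called beyond 2-fold, a match was found in ACTA1 and ACTC1 only. ACTG2 was not called, and its log2 fold change was 0.87 to 1.05 over 11 alternative settings. The motif was searched after the values were known.

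Of the sterol and fatty acid synthesis genes, 17 of 29 were higher in Ex2 by adjusted p, and 1 of them beyond 2-fold. MVK, mevalonate kinase (chr12:109573255-109598125), was at 39.9 and 36.2 CPM in Ex1 and 86.5 and 92.8 in Ex2 (log2 fold change 1.24, SE 0.185, edgeR adjusted p = 0.000125). INSIG1, the sterol-regulated retention factor of the SREBP pathway, was at 109 and 101 against 187 and 211 CPM (0.92, SE 0.103, edgeR adjusted p = 1.45e-06). MSMO1, a sterol C4 demethylation enzyme, was at 160 and 142 against 261 and 271 CPM (0.82, edgeR adjusted p = 1.13e-05). None passed in the lower direction, and 1.78% of all genes were higher; 26 members lay above 0, with a range of -0.13 to 1.24 and a median of 0.53.

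Others that passed were HMGCS1, an early enzyme of the mevalonate pathway (619 and 541 against 847 and 906 CPM), and NSDHL, a late enzyme of cholesterol synthesis (32.8 and 32.3 against 59.1 and 64.5 CPM). Among the 12 members that did not pass were the fatty acid enzymes FASN, at 353 and 353 against 423 and 453 CPM (0.31, edgeR adjusted p = 0.257), and ACACA, at 113 and 114 against 103 and 104 CPM (-0.13, edgeR adjusted p = 0.623), although FASN passed when the compared libraries were fitted alone. The number past the adjusted p was 13 without Ex1 replicate 1, 6 without Ex1 replicate 2, 13 without Ex2 replicate 1 and 7 without Ex2 replicate 2. Again Ex2 N2B27 stood highest at day 4: INSIG1 averaged 199 CPM there and 105 (Ex1 N2B27) to 137 (FAX) elsewhere, and MVD, the decarboxylase of the pathway, 54.6 CPM against 21.1 to 33.5.

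Of the heat shock genes, 4 of 13 were higher in Ex2 by adjusted p, beside 1.78% of all genes. HSPA1A, an inducible HSP70 (chr6:31815543-31817946), was at 61.2 and 74 CPM in Ex1 and 164 and 186 in Ex2 (log2 fold change 1.37, SE 0.176, edgeR adjusted p = 1.13e-05). Its neighbour HSPA1B, near-identical so that reads may be split between the pair, was at 25.8 and 31 against 76.3 and 76.6 CPM (1.43, edgeR adjusted p = 4.07e-06). Group means of HSPA1A were 175 CPM in N2B27, 195 in XAV and 163 in FAX of Ex2, and 67.6 in N2B27, 70.5 in E8 and 58.8 in mTeSR of Ex1.

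The co-chaperones DNAJB1 (116 and 109 against 195 and 214 CPM, 0.86, edgeR adjusted p = 0.000347) and DNAJA1 (257 and 235 against 336 and 348 CPM, 0.48, edgeR adjusted p = 0.00599) also passed, and the list median was 0.20. Group means of DNAJB1 were 204 to 232 CPM in the 3 groups of Ex2 and 93.2 to 113 in those of Ex1. The constitutive HSPA8, at 1260 and 1210 against 1390 and 1460 CPM, and HSP90AA1, at 4600 and 4440 against 5030 and 5170 CPM, did not. None of 14 chaperones of the endoplasmic reticulum passed (median 0.07).

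Of 9 metallothioneins tested, small cysteine-rich proteins that bind zinc, 6 were higher in Ex2 by adjusted p, beside 1.78% of all genes, and none reached 2-fold. All 9 lay above 0 (median 0.51), and those that passed were MT1E, MT1F, MT1G, MT1H, MT1M and MT2A (MT1H lost its place without any 1 library). MT2A (chr16:56608584-56609497) was at 324 and 312 CPM in Ex1 and 495 and 498 in Ex2 (0.64, SE 0.101, edgeR adjusted p = 0.000212), and MT1G at 769 and 767 against 1070 and 1110 CPM (0.51, edgeR adjusted p = 0.00126). Without Ex1 replicate 1 or without Ex1 replicate 2, 3 members passed. SLC30A1, the zinc exporter that the same factor controls, was at 51 and 45.9 against 68.8 and 78.3 CPM (0.60, edgeR adjusted p = 0.00776), and was 1 of 2 genes that passed among 8 of zinc and iron handling (median 0.10, 4 above 0). Mean MT2A was 512 CPM in XAV, 472 in FAX and 608 in E8, and mTeSR (340) was close to Ex1 N2B27 (318). Family members are close in sequence and reads may be shared among them.

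Metallothionein promoters are known for clustered metal response elements, and a pair of them is given with the element's core, TGCACNC or TGCGCNC on either strand, in capitals.
MT2A promoter (chr16:56608334-56608583, plus strand): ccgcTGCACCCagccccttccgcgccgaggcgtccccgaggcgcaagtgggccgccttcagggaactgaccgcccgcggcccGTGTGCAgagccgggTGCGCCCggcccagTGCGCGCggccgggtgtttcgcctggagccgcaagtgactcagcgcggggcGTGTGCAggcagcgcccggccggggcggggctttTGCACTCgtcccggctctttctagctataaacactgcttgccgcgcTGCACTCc
MT1H promoter (chr16:56669564-56669813, plus strand): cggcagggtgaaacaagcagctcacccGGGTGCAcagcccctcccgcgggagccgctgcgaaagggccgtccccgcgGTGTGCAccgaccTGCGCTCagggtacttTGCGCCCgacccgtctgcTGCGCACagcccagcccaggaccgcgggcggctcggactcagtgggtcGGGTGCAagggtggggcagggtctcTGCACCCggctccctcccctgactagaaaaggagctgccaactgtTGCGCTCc
All 4 metallothionein promoters with a RefSeq entry held 3 or more matches, as did 621 of 27305 promoters overall (2.27%); 29.3% of all promoters held at least 1. As with the other motifs, the search followed the values and finds letters, not binding.

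**Figure D3:**
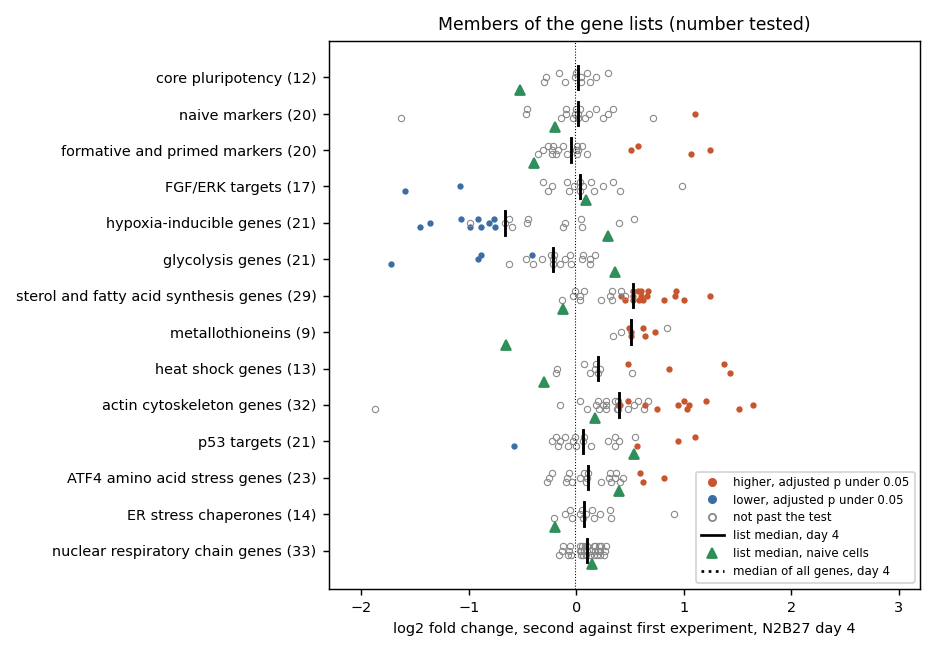
Log2 fold change of each tested member of 14 gene lists at N2B27 day 4, second against first experiment; filled points passed the adjusted p (orange higher, blue lower), open points did not, black bars are list medians, green triangles the medians of the same lists between the naive cultures and the dotted line the median of all genes. Hypoxia-inducible genes (median -0.66) lie to the left and sterol (0.53) and metallothionein (0.51) genes to the right. The naive median lies on the other side of 0 for these 3 lists. The same holds for glycolysis genes, heat shock genes, ER stress chaperones, core pluripotency genes and naive markers.

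None of 12 core genes passed the adjusted p, with log2 fold changes from -0.30 to 0.29 and a median of 0.02: POU5F1 was at 412 and 465 CPM in Ex1 and 501 and 572 in Ex2, SOX2 at 237 and 229 against 239 and 241, and NANOG at 1120 and 1140 against 1290 and 1190. Of 20 naive markers, KLF4 alone passed, beside 1.78% of all genes higher, at 26 and 27.4 CPM in Ex1 and 52.6 and 61.8 in Ex2 (log2 fold change 1.10, SE 0.172, edgeR adjusted p = 0.000212). KLF17 (61 and 57.7 against 74.5 and 75.9 CPM), TFCP2L1 (112 and 108 against 108 and 108), DPPA5 (239 and 225 against 232 and 188) and SUSD2 (104 and 120 against 128 and 139) did not pass, and the median was 0.02. Fitted to the compared libraries alone, POU5F1, KLF17 and SUSD2 passed in the higher direction.

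KLF4 was lowest in Ex1 N2B27 among the day 4 groups, with a mean of 26.7 CPM against 40.5 (mTeSR) to 57.2 (Ex2 N2B27) in the other groups. In the Ex1 course it averaged 44.5 CPM at day 3 and 10.4 at day 6. Between naive cultures the order was the opposite, 110 CPM in Ex1 and 62.4 in Ex2, so that KLF4 fell by 2.04 on the log2 scale from naive to day 4 in Ex1 (edgeR) and its value was -0.12 in Ex2.

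Of 20 formative and primed markers 4 passed, all higher in Ex2, beside 1.78% of all genes. CDH2, or N-cadherin, was at 6.76 and 4.48 CPM in Ex1 and 13.5 and 13.1 in Ex2 (1.24, edgeR adjusted p = 0.00195), and VIM, the intermediate filament protein vimentin, at 9.53 and 10.8 against 22.4 and 20.2 CPM (1.07, edgeR adjusted p = 0.0187, lost without any 1 library). FGF2 was at 298 and 281 against 429 and 394 CPM (0.51, edgeR adjusted p = 0.00103), and the SOXB1 factor SOX3 at 52.3 and 47.5 against 71.9 and 75.9 CPM (0.57, edgeR adjusted p = 0.0367, lost without any 1 library). The early formative genes were close: ZIC2 at 65 and 71.3 against 62 and 59.2 CPM, SALL2 at 115 and 115 against 100 and 97.8, and THY1 at 72.3 and 64.7 against 77.1 and 64.9. The list median was -0.05.

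Of 18 BMP genes, 2 passed in each direction, where 1.78% of all genes were higher and 2.09% lower. GREM1, a secreted BMP antagonist, was called higher (14.7 and 14.5 against 34.7 and 32.6 CPM, 1.20, edgeR adjusted p = 0.000309), while the BMP targets SMAD6 (-0.80) and ID3 (-0.66) were lower and BAMBI (0.57) higher by adjusted p; the list median was 0. SMAD6, BAMBI and LEFTY1 each failed the adjusted p without any 1 of the 4 libraries, and BAMBI failed it in 7 of 11 alternative settings. LEFTY1, an inhibitor that NODAL induces, was at 131 and 129 CPM in Ex1 and 82.3 and 88.7 in Ex2 (-0.60, edgeR adjusted p = 0.0438), and its near-identical neighbour LEFTY2 at 52.5 and 59.3 against 40.9 and 47.1 CPM did not pass. CCND1, cyclin D1 and a WNT target, was at 86.1 and 91.4 against 58.6 and 50.2 CPM (-0.71, edgeR adjusted p = 0.00776). LEFTY1 was the 1 gene to pass among 14 of the Activin/Nodal list (median -0.15), and CCND1 the 1 among 15 WNT genes (median -0.07). Against the same shares, of 15 primitive streak and mesendoderm markers ACTC1 passed higher and the homeobox gene MIXL1 lower (28.4 and 31.2 against 13.3 and 15.2 CPM, -1.06, edgeR adjusted p = 0.00528, lost without 3 of the 4 libraries in turn), while TBXT was at 27.4 and 25.6 against 16.9 and 21.9 CPM. None of 16 trophectoderm and amnion markers and none of 8 neural markers passed.

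The counts of the next lists stand beside 1.78% of all genes higher and 2.09% lower by adjusted p. Of 21 p53 targets, PLK3, a stress-induced kinase, was called higher (14.7 and 13.6 against 31.3 and 29.7 CPM, 1.10, edgeR adjusted p = 0.000713). CDKN1A, the p21 cell cycle inhibitor, was at 25.1 and 31 against 49 and 59 CPM (0.95, edgeR adjusted p = 0.00278) and GDF15 at 109 and 116 against 164 and 168 CPM (0.56, edgeR adjusted p = 0.0174), and XPC, a DNA repair gene, was lower (-0.58, edgeR adjusted p = 0.00792). The list median was 0.06. ATF3, a stress-induced factor, was at 36.4 and 36.7 against 61.5 and 67.3 CPM (0.82, edgeR adjusted p = 0.000777), and with CHAC1 and ATF5 made 3 of 23 ATF4 target genes that passed. NQO1 and GCLM were higher among 13 NRF2 targets, TAGLN and the tissue factor gene F3 among 21 YAP/TEAD targets, and PEG3 and CDKN1C among 24 imprinted genes. GDF15, CHAC1, ATF5 and F3 each dropped out without any 1 library. Among 82 ribosomal protein genes 1 passed and 79 lay above 0, with a median of 0.18, beside 48.8% of all genes above 0.

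The remaining named rises and falls had varied functions. CXCR4, the receptor for the chemokine CXCL12, was at 11.1 and 12.4 CPM in Ex1 and 30.7 and 35.4 in Ex2 (1.5, edgeR adjusted p = 4.8e-05). ANXA1, a membrane-binding annexin, was at 35.2 and 28.1 against 86 and 83.7 CPM (1.42, edgeR adjusted p = 1.13e-05), and LRAT, which esterifies retinol, at 10.2 and 8.06 against 22.4 and 21.6 CPM (1.26, edgeR adjusted p = 0.000658). The long non-coding RNA LINC00685 (1.57) and PLAU, the urokinase gene (1.19, edgeR adjusted p = 0.0146, lost without any 1 library), were also higher. Among the falls were NRN1, or neuritin (40.9 and 39.1 against 15.6 and 18.6 CPM, -1.22), NDRG4 (36.9 and 38.7 against 17.2 and 17.4 CPM, -1.13), the helicase gene DDX59 (-1.25, lost without any 1 library) and MLYCD, malonyl-CoA decarboxylase (-1.11). SNORD13, a small nucleolar RNA, was at 18.9 and 23.3 against 5.99 and 3.09 CPM (-2.22), and RF00003, the U1 family entry of the annotation, at 34.3 and 25.6 against 15.9 and 10.2 CPM (-1.21, lost without any 1 library and in DESeq2). Such RNAs lack a poly(A) tail, and U1 has many copies among which reads may be divided. Of 55 small RNAs listed and tested, RF00003 not among them, SNORD13 and SCARNA22 passed in the lower direction, beside 2.09% of all genes.

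The time course of Ex1 places these differences without using the day 4 libraries. Between day 3 and day 6, 1900 genes were called (11.4% of those tested), 1401 higher at day 6 (8.4%) and 499 lower (2.99%). Of the 103 genes lower in Ex2 at day 4, 47 were among those higher at day 6 (45.6% of the 103 and 3.35% of the 1401) and 1 among those lower. Of the 65 genes higher in Ex2, 13 were higher at day 6 (20%) and 10 lower (15.4%). That count of 1900 was 1347 without day 3 replicate 1 and 2134 without day 3 replicate 2. In the following falls, though not in all (CCDC125 was at 8.04 CPM at day 3 and 7.18 at day 6), Ex2 lay on the day 3 side of Ex1, for the first 2 and the last below the day 3 level itself (84.8, 20.1 and 9.16 CPM in Ex2): P4HA1 averaged 164 CPM at day 3 and 354 at day 6, TXNIP 29 and 213, DUSP6 21.6 and 102, and SLC16A3 15.2 and 50.9. Among the rises both sides occurred: ANXA1 averaged 14.3 and 60.1 CPM and CXCR4 12.8 and 32.8, so that Ex2 lay on the day 6 side, and KLF4 (44.5 and 10.4) on the day 3 side, while ZIC2, whose Ex1 means were 52.5 at day 3 and 138 at day 6, did not differ past the test.

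**Figure D4:**
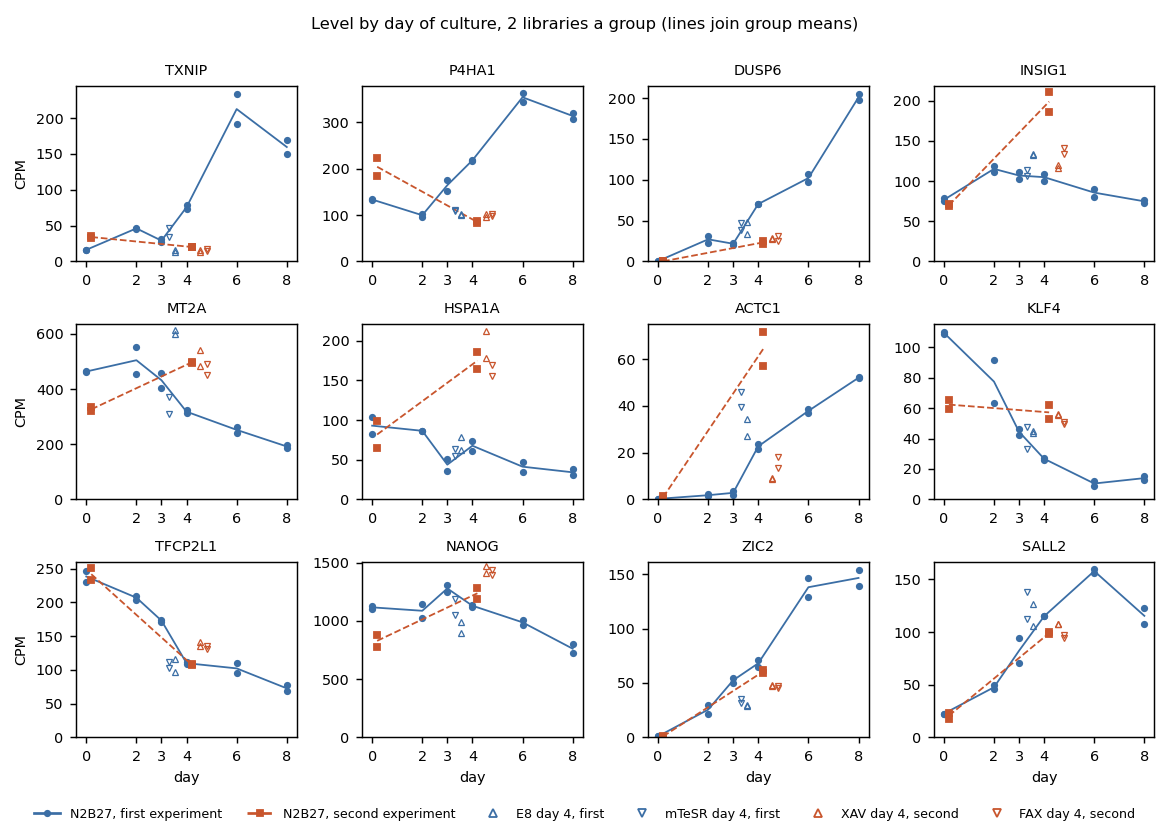
Level in CPM against day of culture for 12 genes, 2 libraries a group; blue circles and lines are N2B27 in the first experiment with naive cells at day 0, orange squares and dashed lines N2B27 in the second, and open triangles the other media at day 4, shifted sideways for legibility. At day 4 TXNIP, P4HA1 and DUSP6 are highest in N2B27 of the first experiment, INSIG1 and ACTC1 in N2B27 of the second, and HSPA1A is higher in the 3 groups of the second than in those of the first, while TFCP2L1, ZIC2 and SALL2 lie close at day 4.

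Over the 168 called genes, the other day 4 media took both sides, by the distance between group means as log2(CPM + 1). The genes were chosen by the difference between the same N2B27 groups, and no share over all genes was computed beside the counts. XAV of Ex2 lay nearer to Ex2 N2B27 than to Ex1 N2B27 for 36 of the 65 higher and 66 of the 103 lower genes, and FAX for 37 and 74. E8 of Ex1 lay nearer to Ex2 N2B27 for 37 and 59 genes, and mTeSR for 40 and 51. Day 3 N2B27 of Ex1 lay nearer to Ex2 for 21 of the higher and 46 of the lower genes, and day 6 for 13 and 4.

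More genes were called between the naive cultures of the experiments than at day 4. Between naive cells on Geltrex of both experiments 778 genes were called (4.67%), 388 higher and 390 lower in Ex2, and this contrast shares no library with the day 4 contrast. The naive libraries of Ex2 carry day 0 in their titles and day 4 in another name field, and the titles were followed. Without naive Ex1 replicate 2 the count was 455, and 472 without naive Ex2 replicate 1. The sets had 17 genes in common, 10.1% of the day 4 calls and 2.19% of the naive calls. Of these, 6 had the same sign: TAC1, a tachykinin precursor, was higher in Ex2 at both points, and SCARNA22, RF00003, CCDC125, MIXL1 and RPRML were lower. MIXL1 averaged 20.1 CPM in naive cells of Ex1 and 3.13 in those of Ex2, and RPRML 9.41 and 4.22. TAC1 and SCARNA22 were low (0.52 and 1.97 against 5.73 and 4.28 CPM for TAC1 at day 4, where 3 counts are worth 0.52 to 0.782 CPM). Of the remaining 11, 1 was higher at day 4 and lower in naive cells, and 10 were lower at day 4 and higher in naive cells.

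For P4HA1, LDHA and MT2A the day 4 difference was the opposite of that between the naive cultures. P4HA1 averaged 134 CPM in naive cells of Ex1 and 204 in those of Ex2 (0.61, edgeR adjusted p = 4.31e-05), and LDHA 452 and 782 (0.79, edgeR adjusted p = 0.0016), so that Ex2 was the higher at day 0 and the lower at day 4. MT2A averaged 464 and 327 CPM (-0.50, edgeR adjusted p = 0.000774), the reverse of its order at day 4. The list medians between naive cultures were 0.29 for hypoxia-inducible genes, 0.36 for glycolysis, -0.65 for metallothioneins, -0.12 for sterol synthesis and -0.3 for heat shock genes. Between naive cultures, where 4.67% of all genes were called, 1 of 21 hypoxia-inducible genes was called higher and 2 lower, 1 of 21 glycolysis genes and 1 of 29 sterol genes were called higher, and none of 9 metallothioneins was called. Of 13 heat shock genes, 3 were called lower.

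Whether the change from naive cells to day 4 differed between experiments was tested as an interaction. The change itself called 2775 genes in Ex1 (16.6%) and 3637 in Ex2 (21.8%); 1263 were called higher in both (64.9% of those of Ex1 and 59.1% of those of Ex2), 507 lower in both (61.1% and 33.8%), and 8 in opposite directions either way. The interaction called 1080 genes (6.48%), 475 with a higher and 605 with a lower change in Ex2. Without naive Ex1 replicate 2 it called 712, and 698 without naive Ex2 replicate 1. It called 9 hypoxia-inducible genes lower and 1 higher, 7 of 9 metallothioneins higher and 6 of 13 heat shock genes higher. Of the 1080 calls, 453 were also called between the naive cultures only and 76 at day 4 only. Another 12 were called in both of these contrasts and 539 in neither. For P4HA1 the change was 0.71 in Ex1 and -1.26 in Ex2, an interaction of -1.97 (edgeR adjusted p = 2.86e-11), and for MT2A the interaction was 1.15 (edgeR adjusted p = 1.8e-06). For TXNIP the change was 2.22 in Ex1 and -0.75 in Ex2.  Each interaction is the day 4 difference minus that between the naive cultures.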

How the data were processed

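RNA was profiled by 3′ tag sequencing (QuantSeq) in 38 libraries, 2 in each of 19 groups. The values are whole-number counts per gene as deposited by the authors, who made them from reads aligned to hg38 with an nf-core pipeline (STAR 2.7.10a and Salmon 1.9.0 are named in the submitters' processing notes). Of 57133 genes, 14445 were at 0 in all libraries. Here 16674 genes passed edgeR's filterByExpr, keeping 99.65% of counts. One model over the 19 groups was fitted with edgeR 4.0.16 in R 4.3.3 (TMM scaling, quasi-likelihood F-test), with Benjamini-Hochberg adjustment over all genes tested. A gene was called at an adjusted p under 0.05 and an absolute log2 fold change above 1. CPM are TMM-scaled. Genes were named from fixed lists and, for the day 4 contrast, as the 12 largest differences each way among called genes whose libraries did not overlap and whose higher group averaged 20 CPM or more. For the interaction, and for genes called with 1 sign in both the day 4 and naive contrasts, up to 5 each way were named. The members and lists were chosen with earlier results of these data known, and the actin list after its values were seen. Some genes that these rules name are not reported here. DESeq2 1.42.0 was run as an alternative, and the scripts were tested on simulated data. Promoters are RefSeq sequences of GRCh38.p14, and gene positions are those of GENCODE on GRCh38. Gene starts differ between these annotations, so the promoters given for P4HA1 and ACTC1 reach into the gene spans given. The precision of each value is limited by 2 libraries a group and by library totals of 3038046 to 5612354 counts.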

Additional observations from a re-analysis of the deposited data

Results flagged for a closer look

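The change from naive cells to N2B27 day 4 differed between the experiments for 1080 genes by edgeR's test of the interaction, from which the genes below were named. The differences are in log2 units, Ex2 minus Ex1, and each is the day 4 difference minus that between the naive cultures. Among the higher values, the mitochondrial tRNA gene MT-TN had an interaction of 3.74, with means of 28.7 CPM in naive cells of Ex1 and 3.64 in those of Ex2. TRIM49C had 6.52 and SOX3 3.55, but naive libraries of Ex2 were at or near 0 for both (means of 0 and 0.171 CPM), so these fitted values depend on the prior count; TRIM49C lost its call without naive Ex1 replicate 2, either naive Ex2 replicate or N2B27 day 4 Ex2 replicate 2, and SOX3 without naive Ex2 replicate 2 and in DESeq2.

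Among the lower values, CRYBA4, a lens crystallin gene, had an interaction of -4.04, with 9.78 and 29.3 CPM in naive cells of Ex1 and Ex2 and 6.99 and 1.28 CPM at day 4. ZC3H6 had -3.67, with 3.69 and 25 CPM in naive cells and 3.09 and 1.59 at day 4. Between the experiments at day 4, MT-TN (0.73), TRIM49C (0.28), SOX3 (0.57) and ZC3H6 (-0.92) were not called. TXNIP had -2.98, PLEKHG4 -2.59 and LDB2 -2.45, and these 3 were higher in Ex2 among naive cells and lower at day 4.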

How the results depend on the processing

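The day 4 count of 168 was 170 with RLE scaling, 173 with a filter of more than 10 counts in 2 libraries and 190 without a filter. With library totals it was 190, and 27.4% of the calls were higher in Ex2 against 38.7% with TMM. DESeq2 called 98, of which 94 were among the 168, and a fit to the compared libraries alone called 286, with 157 shared; that fit also put 22 actin genes and 8 heat shock genes past the adjusted p in the higher direction, beside 8.66% of all genes. Leaving out each library in turn gave 52 to 95 calls at day 4, 6 to 13 sterol genes, 3 to 4 metallothioneins, 4 to 6 actin genes, 455 to 680 calls between naive cultures and 698 to 984 for the interaction. With a replicate block 175 genes were called at day 4; the replicate numbers were not taken as pairs, since deviations of same-numbered libraries correlated at -0.034 at day 4 and -0.05 in naive cells over 9108 genes. Direction turned for genes near 0: with library totals SOX2 was -0.02, THY1 -0.01 and SPRY4 -0.03, and over the libraries left out in turn DPPA5 ranged from -0.29 to 0.02, THY1 from -0.07 to 0.19 and SPRY4 from -0.04 to 0.13. Losses here and in the report were judged by the adjusted p alone, so genes never beyond 2-fold are included. Beside the genes given in the report as lost without any 1 library, a pass at day 4 was lost without 1 library or more for MXI1 and CDKN1A (Ex1 replicate 1), CDH2, ENO2, DNAJA1, CCND1 and CCDC125 (Ex1 replicate 2), NRN1 (Ex2 replicate 1), ACTA1, CDKN1A, ENO2, DNAJA1, CCND1 and CCDC125 (Ex2 replicate 2), and without 3 of the 4 for TAC1, MT1F, EGR1, XPC, SCARNA22, MIXL1, RPRML and ID3. SOX3, CHAC1, ATF5, F3 and MT1H were lost in 5 of 11 alternative settings. Over these settings the smallest log2 fold change was under 2-fold for the called genes KLF4 (0.99), TAGLN (0.99) and MLYCD (-0.95). The causes of these changes were not tested. With 2 libraries a group, small differences in genes of low count were not detectable at this depth.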
